A study of Mus musculus with 8 samples.

Results

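Transcripts of 9 hedgehog pathway genes were measured in microdissected mouse peripheral retina at postnatal day 12. The genes were listed by symbol for their role in the pathway: the ligand Shh, the surface proteins Ptch1, Boc and Hhip, the signal transducer Smo, the inhibitor Sufu and the transcription factors Gli1, Gli2 and Gli3. All 9 were among the 23284 genes of each count table and among the 15106 genes with enough reads for the test. They were compared between 4 RNA-seq libraries of Rb-null tissue and 4 labelled TET-MYCN, the genotypes of which follow.

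In both groups a Cre recombinase driven by the alpha enhancer of Pax6, which is active in peripheral retina, acts on the tissue. In the first group it deletes floxed Rb1, the retinoblastoma tumour suppressor gene. The second group is called Rb null, TET-MYCN in the labels and adds a transactivator (rtTA) at Rosa26 behind a stop cassette that Cre removes, and a MYCN transgene under its control (TRE-MYCN). The series title gives floxed Rb1 for both groups. The labels state neither a strain nor a doxycycline treatment. Cells in which Cre was not active can remain in both groups, and their share was not measured. The labels do not say that each library came from another animal, so each p-value rests on a spread among libraries that could be technical.

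Hedgehog ligands bind Patched, which otherwise keeps Smoothened silent. Free Smoothened acts through the primary cilium and relieves the Gli factors from Sufu, so that Gli2 turns from a weak into a strong activator, less Gli3 repressor is made, and Gli1, Ptch1 and Hhip are transcribed as targets. In the developing retina Shh comes mainly from ganglion cells and some amacrine cells, and progenitors and Müller glia respond to it, with Mycn and cyclin D1 among the genes it induces in progenitors.

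Shh was lower and Hhip, Boc, Gli2, Gli1, Gli3 and Smo were higher on average in the TET-MYCN libraries, while the means of Sufu were nearly equal and Ptch1 was low in 1 TET-MYCN library. None of the 9 genes passed an adjusted p of 0.05 over all genes tested (0 of 9, edgeR's quasi-likelihood test with Benjamini-Hochberg adjustment), where 9 of 15106 genes, 0.0596%, passed (0.053% in the higher direction). Before adjustment 6 of the 9 had a p under 0.05, against 15.8% of all genes tested. Of these, 5 were higher and 1, Shh, was lower, where 8.06% of all genes were higher and 7.72% lower at that p. DESeq2 called 1 of the 9, Hhip (3.51% of all genes), with 6 of the 9 at an unadjusted p under 0.05 (17.1% of all genes), and limma-voom called 0, with 5 of the 9 at an unadjusted p under 0.05 (15% of all genes). The count of 6 before adjustment moved with the libraries used, as did the share of all genes. It was 3 without Rb-null 4 (10.3% of all genes), without TET-MYCN 1 (11.7%) or without TET-MYCN 4 (10.6%), and 4 without Rb-null 1 (13.5%) or without TET-MYCN 2 (16.8%). It was 7 without TET-MYCN 3 (24.1%), 4 with the replicate number as a block (12.2%) and 2 without Rb-null 2 and 3, the libraries richest in lens crystallin reads (8.4%). The median log2 fold change was 0.51 over the 9 genes and 0.01 over all genes tested, and 7 of 9 were positive against 52.2% of all genes.

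The gene counts of the libraries lay between 14872131 and 22873979. Markers of rods, bipolar cells, amacrine cells and Müller glia were present in all 8, as in retina, and rod markers ranged from 2200 to 14806 CPM (gene counts scaled to TMM-adjusted library size) summed over 7 genes. Lens markers, from outside the retina, ranged from 37.1 to 632 CPM summed over 11 genes. Mouse Mycn had 246, 339, 108 and 232 CPM across Rb-null 1 to 4 and 201, 219, 272 and 276 CPM across TET-MYCN 1 to 4, and Rb1 had means of 161 and 154 CPM. Neither gene checks the labels, since reads of a MYCN transgene need not be counted at mouse Mycn and a floxed allele can leave most exons in place. TET-MYCN 3 stood apart by transcript length: its level relative to the mean of the other 3 TET-MYCN libraries had a median log2 of 0.30 in the shortest and -0.37 in the longest of 4 equal classes of genes by longest transcript. In the other TET-MYCN libraries the longest class had medians of 0.03 to 0.14. Rb-null 4 had a smaller pattern in the same direction against the other 3 Rb-null libraries, at 0.12 in the shortest and -0.14 in the longest class. In the other Rb-null libraries the longest class had medians of 0.03 to 0.05.

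**Figure D1:**
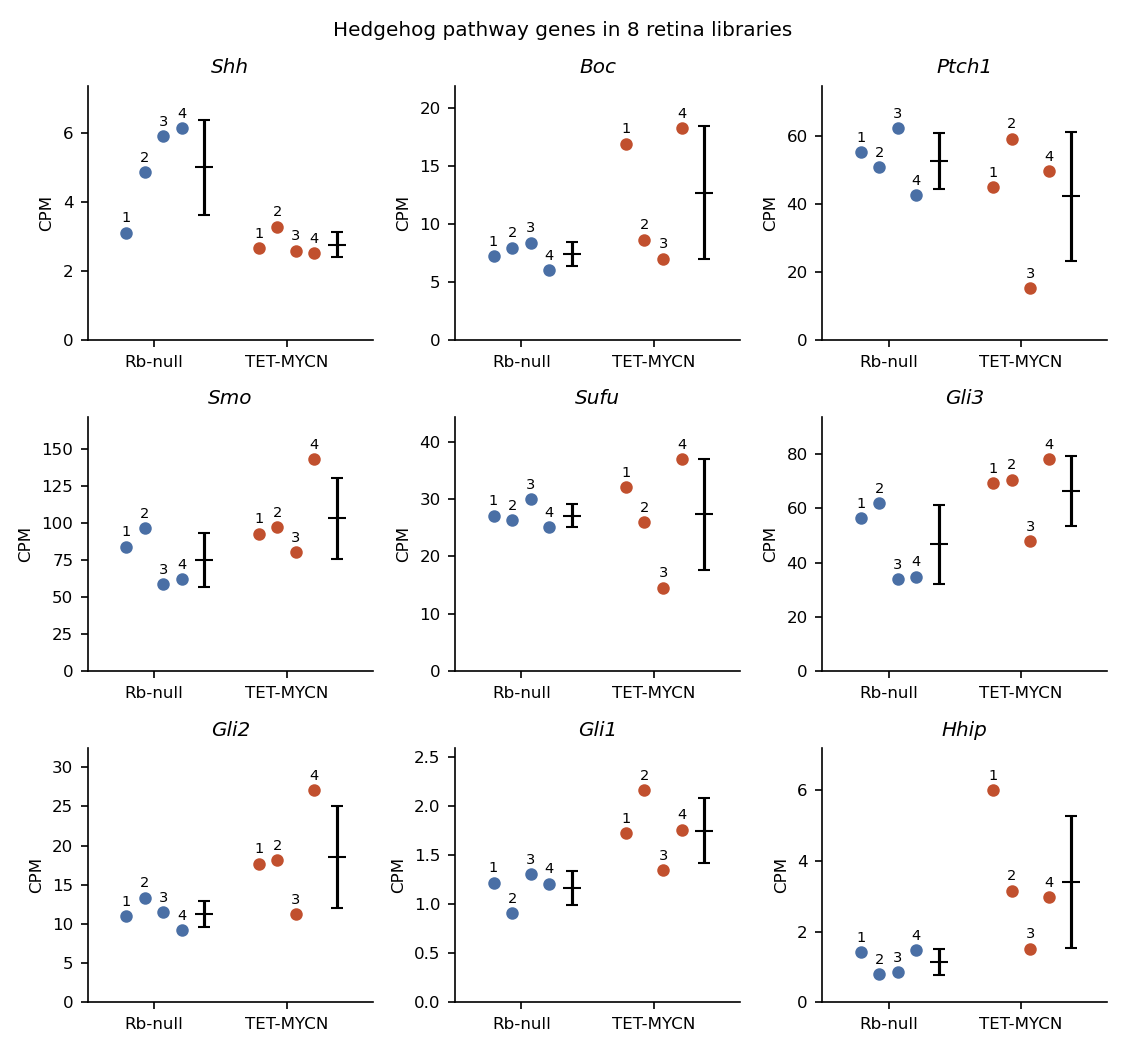
Level of each of the 9 genes in CPM (y axes, starting at 0) in the 4 Rb-null (blue) and 4 TET-MYCN (red) libraries, each point 1 library with its number, and black bars the mean ± SD. Groups separate for Gli1 and Hhip, and TET-MYCN 3 is the lowest TET-MYCN library for every gene other than Shh.

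Shh encodes the ligand. It was counted at 3.10, 4.86, 5.89 and 6.12 CPM across Rb-null 1 to 4 and 2.65, 3.29, 2.58 and 2.52 CPM across TET-MYCN 1 to 4. The TET-MYCN libraries were close together and low, the Rb-null libraries spread upward from the same level, and the groups overlapped by a single library on each side, Rb-null 1 and TET-MYCN 2. The means were 4.99 ± 1.37 and 2.76 ± 0.355 CPM (SD, n = 4 each), a log2 fold change of -0.85 ± 0.24 (SE; 95% interval -1.38 to -0.31; unadjusted p = 0.00555, adjusted p = 0.177, edgeR). Those levels rest on 43 to 91 reads per library, and the 61 reads of Rb-null 1 alone allow 2.37 to 3.99 CPM (exact Poisson, 95%, counting error only). The sign was negative in all 17 alternative fits, from -1.02 without Rb-null 1 to -0.73 without Rb-null 2 and 3, and the adjusted p came closest to the threshold with DESeq2, at 0.0510.

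Ganglion cell transcripts, from the main known source of Shh, are given beside it. Of 11 ganglion cell markers 10 were lower on average in TET-MYCN (median log2 fold change -0.50), 4 of them at an unadjusted p under 0.05, and 0 were called. Their summed level was 535, 366, 773 and 776 CPM across Rb-null 1 to 4. Rb-null 2 had the lowest sum of all 8 libraries. In TET-MYCN libraries 1 to 4 the sum was 561, 534, 441 and 426 CPM, within the Rb-null range. Nefm alone gave 189 of the 561 CPM in TET-MYCN 1, and Isl1 is also in the list of bipolar cell markers. No marker of the list was at 0 in all libraries. In bulk tissue fewer cells of a type and less RNA per cell cannot be told apart, and the part of these markers in the level of Shh was not tested. Nefh, the heavy neurofilament of large axons, had a log2 fold change of -0.87 ± 0.20. Nefm, the medium neurofilament, had 0.37 ± 0.33, so the list did not move as one. Amacrine cells, some of which are the other source named above, had 8 markers, and these were split. On average 4 were higher and 4 lower in TET-MYCN, around a median of 0.005 on the log2 scale, with 0 called. Their sums overlapped, at 908 to 1074 CPM across Rb-null and 787 to 1090 CPM across TET-MYCN. The part of amacrine cells in the level of Shh was not tested either.

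Ptch1 encodes the receptor that silences Smoothened, and is also a Gli target. Ptch1 reached 55.2, 50.7, 62.1 and 42.6 CPM across Rb-null 1 to 4 and 44.9, 59.0, 15.3 and 49.6 CPM across TET-MYCN 1 to 4. Only TET-MYCN 3 lay outside the Rb-null range, at less than any other library. The log2 fold change was -0.32 ± 0.33 (95% interval -1.05 to 0.41; adjusted p = 0.692, edgeR) with all libraries and -0.04 ± 0.14 (adjusted p = 0.887) without TET-MYCN 3. Ptch1 has the longest transcript of the 9 genes, 10383 bases in GENCODE M21.

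**Figure D2:**
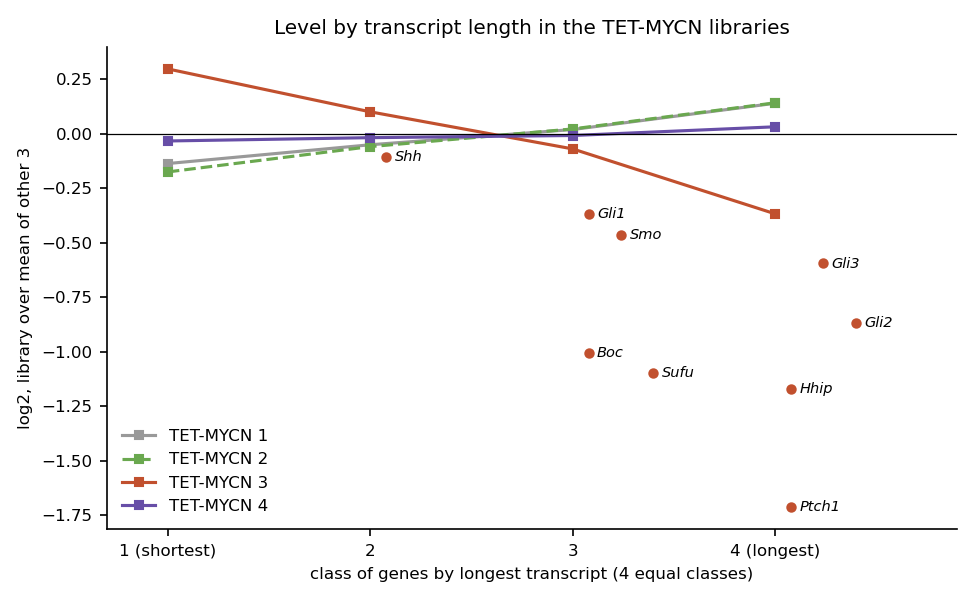
Log2 of each TET-MYCN library over the mean of the other 3 (y axis), as medians over 4 equal classes of 13650 genes by longest transcript (x axis, squares, 1 line per library), with the 9 hedgehog genes in TET-MYCN 3 as red dots placed in their class. TET-MYCN 3 runs from 0.30 in the shortest to -0.37 in the longest class, and all 9 genes lie below 0 there, Ptch1 lowest at -1.71.

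In TET-MYCN 3 all 9 genes were below the mean of the other 3 TET-MYCN libraries, and 8 of 9 were the lowest of the group, where 50.2% of all genes with a known length and 83.4% of the longest class were below that mean. The log2 values there were -1.71 for Ptch1, -1.17 for Hhip, -1.09 for Sufu, -1.005 for Boc, -0.87 for Gli2, -0.59 for Gli3, -0.46 for Smo, -0.37 for Gli1 and -0.11 for Shh. Each gene was below the median of its own length class: Ptch1, Hhip, Gli2 and Gli3 below the -0.37 of the longest, Sufu, Boc, Smo and Gli1 below the -0.07 of the third, and Shh below the 0.10 of the second. Sufu (4522 bases) and Boc (4451 bases) were lower than Gli2 (6637 bases) and Gli3 (8170 bases). The part of transcript length in these values was not tested. Leaving out TET-MYCN 3 moved each of the 9 log2 fold changes upward.

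Boc encodes a co-receptor that binds the ligand together with Patched, and its transcription is usually repressed by the pathway. Boc reached 7.23, 7.95, 8.38 and 6.05 CPM across Rb-null 1 to 4 and 16.9, 8.65, 7.02 and 18.2 CPM across TET-MYCN 1 to 4. TET-MYCN 1 and 4 were high, TET-MYCN 2 was just above and TET-MYCN 3 within the Rb-null range. The log2 fold change was 0.78 ± 0.30 (95% interval 0.10 to 1.45; unadjusted p = 0.0276, adjusted p = 0.263, edgeR), 0.97 ± 0.25 (adjusted p = 0.0812) without TET-MYCN 3, 0.60 ± 0.32 (adjusted p = 0.486) without TET-MYCN 1 and 0.55 ± 0.29 (adjusted p = 0.541) without TET-MYCN 4.

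Smo encodes the G-protein-coupled receptor-like protein that carries the signal into the cell, and had the highest level per length of the 9 genes. Smo reached 83.9, 96.4, 58.5 and 61.9 CPM across Rb-null 1 to 4 and 92.7, 97.0, 80.2 and 143 CPM across TET-MYCN 1 to 4. TET-MYCN 4 was well above every other library, and the other 3 were within the Rb-null range or just above it. The log2 fold change was 0.46 ± 0.21 (95% interval -0.01 to 0.92; unadjusted p = 0.0541, adjusted p = 0.323, edgeR) and fell to 0.26 ± 0.18 without TET-MYCN 4.

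Sufu encodes the protein that holds Gli factors in the cytoplasm. Sufu reached 27.1, 26.4, 29.9 and 25.1 CPM across Rb-null 1 to 4, the tightest group of the 9 genes, and 32.0, 26.0, 14.5 and 36.9 CPM across TET-MYCN 1 to 4. The TET-MYCN libraries lay on both sides of the Rb-null range. The log2 fold change was 0.01 ± 0.24 with a 95% interval of -0.52 to 0.54 (adjusted p = 0.987, edgeR), so changes of up to that size in either direction were not resolved. It was 0.22 ± 0.13 without TET-MYCN 3 and -0.16 ± 0.23 without TET-MYCN 4.

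Gli2 is the main activator of the pathway at the start of a response. Gli2 reached 10.99, 13.4, 11.5 and 9.21 CPM across Rb-null 1 to 4 and 17.7, 18.1, 11.2 and 27.0 CPM across TET-MYCN 1 to 4. The groups overlapped through TET-MYCN 3 alone, the other 3 being above every Rb-null library. The means were 11.3 ± 1.71 and 18.5 ± 6.49 CPM (SD, n = 4 each), a log2 fold change (TET-MYCN over Rb-null) of 0.72 ± 0.24 (unadjusted p = 0.0142, adjusted p = 0.222, edgeR). Without TET-MYCN 3 the value was 0.89 ± 0.19 (adjusted p = 0.0556), and without TET-MYCN 4 it was 0.48 ± 0.20 (adjusted p = 0.464).

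Gli3, which mostly acts as a repressor when no ligand is present, had 56.4, 61.9, 33.9 and 34.8 CPM across Rb-null 1 to 4 and 69.2, 70.6, 47.9 and 78.0 CPM across TET-MYCN 1 to 4. Rb-null 3 and 4 were low and Rb-null 1 and 2 lay between TET-MYCN 3 and the other TET-MYCN libraries. The log2 fold change was 0.51 ± 0.22 (unadjusted p = 0.0477, adjusted p = 0.312, edgeR), between 0.38 without Rb-null 3 and 0.67 without Rb-null 2. The order of the Rb-null libraries, from 2 through 1 and 4 down to 3, was the same in Smo.

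Gli1 is both an activator and the classical transcriptional readout of the pathway. Gli1 reached 1.22, 0.911, 1.31 and 1.21 CPM across Rb-null 1 to 4 and 1.73, 2.16, 1.35 and 1.76 CPM across TET-MYCN 1 to 4. All TET-MYCN libraries were above all Rb-null libraries, by a narrow margin between TET-MYCN 3 and Rb-null 3. The means were 1.16 ± 0.174 and 1.75 ± 0.333 CPM (SD, n = 4 each), a log2 fold change of 0.59 ± 0.24 (95% interval 0.06 to 1.12; unadjusted p = 0.0315, adjusted p = 0.276, edgeR). Gli1 was counted in 15 to 50 reads per library, and the 24 reads of TET-MYCN 3 allow 0.864 to 2.01 CPM, which covers all 4 Rb-null values.

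Hhip encodes a membrane protein that binds hedgehog ligands and takes them away from Patched, and its gene is a Gli target. Hhip reached 1.42, 0.789, 0.851 and 1.48 CPM across Rb-null 1 to 4 and 5.99, 3.16, 1.52 and 2.97 CPM across TET-MYCN 1 to 4. TET-MYCN 1 was highest, and TET-MYCN 3 was barely above Rb-null 4. The means were 1.14 ± 0.366 and 3.41 ± 1.87 CPM (SD, n = 4 each), a log2 fold change of 1.57 ± 0.41, the largest of the 9 genes (95% interval 0.65 to 2.49; unadjusted p = 0.00357, adjusted p = 0.164, edgeR). The adjusted p was 0.0213 with DESeq2 and 0.0448 without TET-MYCN 3, a fit that called 1.52% of all genes, and it lay between 0.0213 and 0.587 over the 17 alternatives. Hhip was counted in 13 to 28 reads per Rb-null library and 27 to 97 reads per TET-MYCN library. Gli1 and Hhip were the 2 of 9 genes whose groups did not overlap, against 7.65% of all genes tested. Both were higher, the direction of 4.36% of all genes, and 3.28% were lower.

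**Figure D3:**
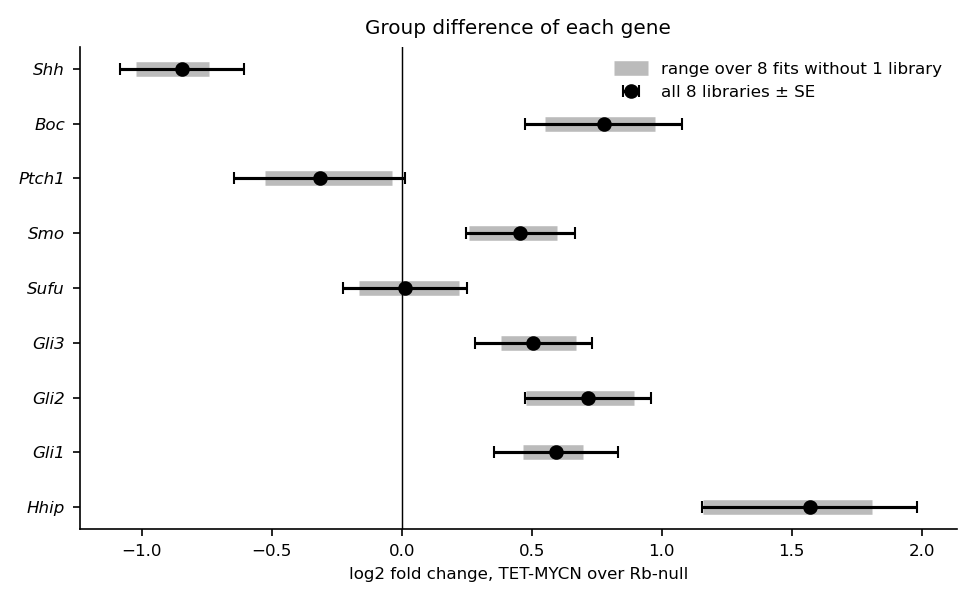
Log2 fold change of TET-MYCN over Rb-null (x axis) for each of the 9 genes, as points with ± SE from edgeR with all 8 libraries, and grey bars for the range over 8 fits that each leave out 1 library. Shh lies below 0 throughout its bar, Hhip lies highest at 1.57, and only the bar of Sufu crosses 0.

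Bases upstream of the annotated start are shown for Hhip and Smo, the genes with the lowest and the highest level per length in the Rb-null libraries. They come from RefSeq promoter windows of build GRCm38.p6, which differs from the authors' build, and the Hhip window was kept only where it lies outside the RefSeq gene. Hhip lies at chr8:80058061-80058258 on the minus strand (198 bases, 82.3% G or C, 24 CG steps) and Smo at chr6:29735247-29735496 on the plus strand (250 bases, 68.4% G or C, 15 CG steps). Capitals mark the GC box GGGCGG, read on either strand.
Hhip: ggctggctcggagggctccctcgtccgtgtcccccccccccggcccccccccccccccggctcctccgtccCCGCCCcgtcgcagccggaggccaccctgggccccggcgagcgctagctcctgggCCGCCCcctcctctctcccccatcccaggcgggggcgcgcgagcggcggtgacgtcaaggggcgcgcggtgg
Smo: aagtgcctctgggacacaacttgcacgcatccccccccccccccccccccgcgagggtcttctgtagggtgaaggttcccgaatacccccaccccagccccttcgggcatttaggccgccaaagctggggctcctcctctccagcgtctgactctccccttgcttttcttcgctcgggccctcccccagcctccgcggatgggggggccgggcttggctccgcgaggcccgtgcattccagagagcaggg

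Windows of 250 bases were found for 6 of the 9 genes (Gli2, Gli3, Hhip, Ptch1, Smo and Sufu). Those of Gli2 and Ptch1 lay wholly inside the RefSeq gene, with 0 bases upstream of it, and that of Hhip in part. Motifs were searched on both strands. The GC box was in 5 of the 6, all but Smo, against 32.7% of all 32851 windows. Those were not matched for base composition, which was 54% to 78.4% G or C in the 6. The GLI consensus GACCACCCA was in 0 of the 6 and in 0.225% of all windows, and the E-box CACGTG, the letters bound by MYC family proteins, was in 0 of the 6 and in 6.02% of all windows. The absence of these letters holds for these windows alone.

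Levels were ordered per length of exon sequence (CPM per kb, exon lengths from GENCODE M21). In the Rb-null libraries the order was Smo at 13.4 ± 3.21 CPM per kb, Gli3 at 4.87 ± 1.51, Ptch1 at 3.71 ± 0.577, Sufu at 3.53 ± 0.267, Shh at 1.75 ± 0.483, Boc at 1.66 ± 0.229, Gli2 at 1.64 ± 0.248, Gli1 at 0.233 ± 0.0349 and Hhip at 0.125 ± 0.0404 (SD, n = 4 each). Neighbours overlapped between Gli3, Ptch1 and Sufu and between Shh, Boc and Gli2, while Smo stood above all others and Gli1 and Hhip below, without overlap. Both feedback targets with low levels, Gli1 and Hhip, were thus far under Ptch1, the third target. In the TET-MYCN libraries Shh stood at rank 7 in place of rank 5, at 0.970 ± 0.125 CPM per kb, under Boc and Gli2. Hhip at 0.375 ± 0.206 and Gli1 at 0.350 ± 0.0666 exchanged the last ranks, with overlapping values. Sufu at 3.56 ± 1.25 and Ptch1 at 2.98 ± 1.33 exchanged ranks 3 and 4, also with overlapping values.

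Among the TET-MYCN libraries TET-MYCN 4 was highest for 5 of 9 genes (Smo, Gli2, Gli3, Sufu and Boc), TET-MYCN 2 for 3 and TET-MYCN 1 for Hhip. TET-MYCN 4 also differed by base composition, with a median log2 against the other 3 of -0.21 over the class of genes with the lowest GC content of the transcript and 0.15 over the class with the highest, and the part of that in these values was not tested. The summed level of 14 markers of pigment epithelium and ciliary margin was highest in TET-MYCN 1 and 4. It was 257, 91.2, 108 and 346 CPM across TET-MYCN 1 to 4 and 76.2 to 99.5 CPM across Rb-null. Zic1 (93.4 and 149 CPM in TET-MYCN 1 and 4) and Gja1 (79.0 and 90.5 CPM) made up much of it there. In this list 10 of 11 tested genes were positive, 0 called, and 3 of 14 had a mean under 1 CPM. The pigment epithelium gene Ttr was negative, with a log2 fold change of -1.48 ± 0.66. Rpe65, below the test's filter, had means of 1.16 CPM in Rb-null and 0.183 CPM in TET-MYCN. Markers of retinal progenitors were positive in 9 of 10, with a median log2 fold change of 1.12, 8 of them higher at an unadjusted p under 0.05 and 0 called. The summed level of progenitor markers was 612 to 677 CPM across Rb-null and 581 to 763 CPM across TET-MYCN. Of 8 Müller glia markers 6 were lower on average and Crym and Sox9 were at 0.24 and 0.27 on the log2 scale, with 0 called. Their sums, 3150 to 4388 CPM across Rb-null and 1904 to 2913 CPM across TET-MYCN, did not overlap, but without Glul, the most abundant marker, the other 7 summed to 1917 to 2033 and 1295 to 1929 CPM, which overlapped. Glul, Slc1a3, Aqp4 and Kcnj10, 4 of 8, were each lower in TET-MYCN without overlap, where 3.28% of all genes were. The same 4 had an unadjusted p under 0.05 (edgeR), where 7.72% of all genes were lower at that p. Markers of rods (7 of 7, median log2 fold change -1.24), bipolar cells (7 of 7, -1.16), cones (6 of 6, -0.95) and lens (10 of 10 tested, -3.36) were all lower on average in TET-MYCN, with 0 called. The sums of each list overlapped between groups. For rods they were 3098 to 14806 CPM across Rb-null and 2200 to 5311 CPM across TET-MYCN. For bipolar cells they were 275 to 772 and 233 to 372 CPM, and for cones 168 to 677 and 133 to 280 CPM. Rb-null 2 was the lowest Rb-null library in these lists. Lens sums were 56.7 to 632 and 37.1 to 99.7 CPM, with Rb-null 2 and 3 highest. Horizontal cell markers had a median of 1.13, with 3 of 5 positive and 0 called. The part of any of these cell types in the levels of the 9 genes was not tested.

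Across the 8 libraries the log2 CPM of Gli1 was related to 3 other members. With Hhip, Pearson's r was 0.82 (two-sided exact permutation p = 0.0128, adjusted over 3 relations 0.0384) and Spearman's rho 0.83 (p = 0.0154, adjusted 0.0461). Groups did not overlap for either gene, so this relation cannot be told apart from the group difference, and 4 libraries within a group are too few to give it there. Without TET-MYCN 2 and Rb-null 2, the libraries farthest from the median of Gli1, r was 0.83 over 6 libraries (exact permutation p = 0.0444, adjusted 0.133). With Ptch1, r was 0.11 (exact permutation p = 0.811, adjusted 0.811) and rho 0.10 (p = 0.840, adjusted 0.840), and without those 2 libraries r was 0.06. With Shh, r was -0.55 (exact permutation p = 0.162, adjusted 0.243) and rho -0.60 (p = 0.132, adjusted 0.198), and without those 2 libraries r was -0.63.

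The genes most like Gli1 and Shh over the 8 libraries were found by the root mean square distance of log2 CPM profiles, each centred on its mean, among 14487 genes with at least 1 CPM on average. Among the 4 nearest to Gli1 were 4921536K21Rik at 0.12, Fam13a at 0.16 and Bnip3, a mitochondrial protein induced by hypoxia, at 0.17, against a distance of 0.34 of Gli1 from a flat profile. The log2 fold changes of these 3 lay between 0.47 and 0.64. The nearest to Shh were Camk2a, a kinase of mature synapses, at 0.14, Sidt1 at 0.17, the potassium channel gene Kcnj5 at 0.18 and Adamtsl2, an extracellular matrix protein gene, at 0.19, against 0.49 from a flat profile. Their log2 fold changes lay between -0.72 and -0.64. None of these 7 genes passed an adjusted p of 0.05 (edgeR), and none belongs to the pathway lists.

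**Figure D4:**
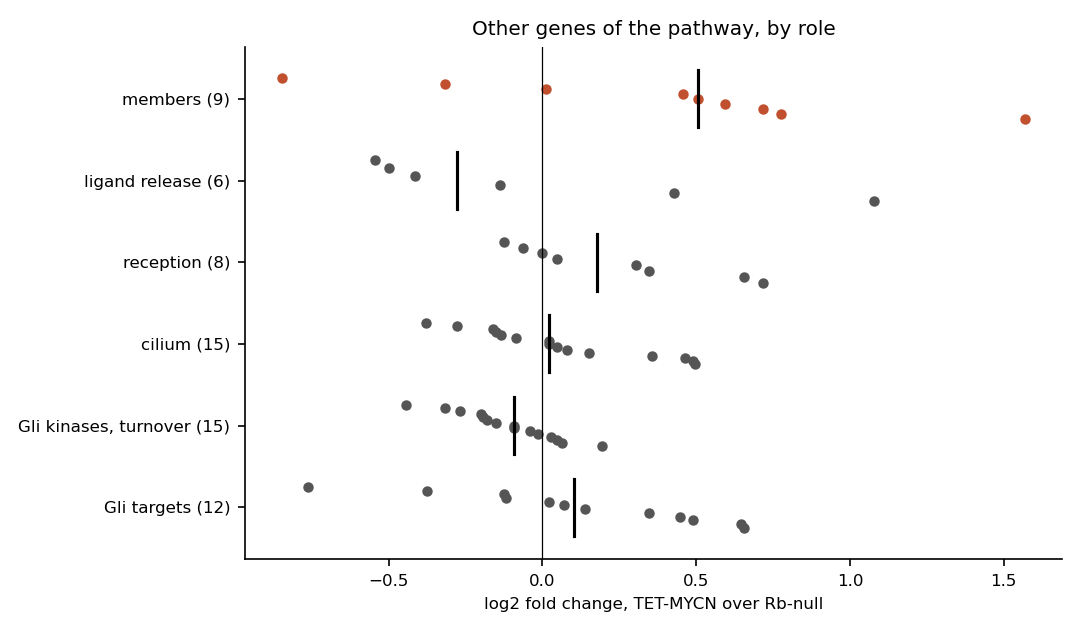
Log2 fold change of TET-MYCN over Rb-null (x axis) for the 9 hedgehog genes (red) and the tested genes of 5 other lists of the pathway (grey, number of genes in brackets), each point 1 gene and each black line the median of its list. The medians of the 5 other lists lie between -0.28 and 0.18, below the 0.51 of the 9 genes.

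Of 63 other genes of the pathway, 55 were tested and 0 passed over all genes tested (edgeR). Before adjustment 11 of the 55 had a p under 0.05, 6 higher and 5 lower, against 15.8% of all genes, and limma-voom called 0. DESeq2 called 2 of the 55, Disp2 and Gpc3, where it called 3.51% of all genes, so that count is near the background. Without TET-MYCN 3 edgeR called 3, Scube2, Ccnd2 and Igf2 (1.52% of all genes), and without TET-MYCN 2 it called 1, Disp2 (0.87%). Their median log2 fold change was 0.00, with 27 of 55 positive.

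Among genes of ligand release 2 of 6 tested were positive, with a median of -0.28 and 0 called. Disp2, a relative of the protein that releases the lipid-linked ligand, had 101, 107, 128 and 123 CPM across Rb-null 1 to 4 and 78.9, 102, 67.5 and 67.0 CPM across TET-MYCN 1 to 4. All but TET-MYCN 2 were below the Rb-null range, and the log2 fold change was -0.54 ± 0.15 (adjusted p = 0.170, edgeR; 0.0370 with DESeq2 and 0.0466 without TET-MYCN 2). Scube2, a secreted carrier of the ligand, had 0.942 to 1.58 CPM across Rb-null and 3.21, 3.07, 1.18 and 3.02 CPM across TET-MYCN 1 to 4. Its log2 fold change was 1.08 ± 0.34 (adjusted p = 0.202) and 1.32 ± 0.23 without TET-MYCN 3 (adjusted p = 0.0361, edgeR). With any other single library left out it lay between 0.96 and 1.21 (adjusted p 0.155 to 0.454, edgeR). Of the other ligands, Dhh had means of 4.83 and 3.42 CPM (log2 fold change -0.50 ± 0.26, adjusted p = 0.385, edgeR). Ihh was below the test's filter, at 0.182 to 0.662 CPM across Rb-null and 0.247 to 0.674 CPM across TET-MYCN. Disp1, the main releaser of the ligand, named after its values were seen, was listed at 0 reads in all 8 libraries. Which gene models were counted is not stated in these sources, and this 0 does not show that the gene was silent.

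Among genes of reception 5 of 8 were positive, with a median of 0.18 and 0 called. Gpc3, a cell surface proteoglycan that binds the ligand and competes with Patched, was higher in every TET-MYCN library, at 87.2, 53.4, 58.0 and 105 CPM against 42.0 to 48.4 CPM. Its log2 fold change was 0.72 ± 0.20 (adjusted p = 0.173, edgeR; 0.0391 with DESeq2), and TET-MYCN 1 and 4 were again the highest. Cdon, a co-receptor related to Boc, had means of 252 and 321 CPM (0.35 ± 0.18, adjusted p = 0.368).

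Among genes that carry the signal through the cilium 9 of 15 were positive, with a median of 0.02 and 0 called. Evc and Evc2, partners of Smoothened at the base of the cilium, had log2 fold changes of 0.46 ± 0.24 and 0.50 ± 0.22 (adjusted p = 0.377 and 0.310, edgeR), each with TET-MYCN 4 highest. Arl13b, a small GTPase of the ciliary membrane, had -0.38 ± 0.15 (adjusted p = 0.276). Among kinases and turnover factors of the Gli proteins 11 of 15 were negative, with a median of -0.09 and 0 called. Ulk3, a kinase that binds Sufu and acts on Gli proteins, was lower in every TET-MYCN library, at 38.5 to 44.3 against 47.3 to 50.8 CPM (log2 fold change -0.27 ± 0.09, adjusted p = 0.216, edgeR). Btrc, which marks Gli proteins for proteolysis, had -0.32 ± 0.11 (adjusted p = 0.229), and Prkacb, a catalytic subunit of protein kinase A, had -0.20 ± 0.11 (adjusted p = 0.410).

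Among genes described as Gli targets 8 of 12 tested were positive, with a median of 0.10 and 0 called. The cyclin genes Ccnd1 and Ccnd2 had log2 fold changes of 0.45 ± 0.16 and 0.64 ± 0.21 (adjusted p = 0.231 and 0.216, edgeR), and Ccnd2 had an adjusted p of 0.0450 without TET-MYCN 3, 0.416 without TET-MYCN 1 and 0.456 without TET-MYCN 4. Ccnd2 was at 14.4, 11.1, 7.30 and 12.9 CPM across TET-MYCN 1 to 4 and 6.07 to 7.99 CPM across Rb-null, so TET-MYCN 3 alone lay within the Rb-null range. Igf2, a growth factor gene, went the other way, at 202 to 230 CPM across Rb-null and 87.5, 139, 205 and 81.7 CPM across TET-MYCN 1 to 4 (-0.76 ± 0.26, adjusted p = 0.225, edgeR). For Igf2 the log2 value was -1.08 without TET-MYCN 3 (adjusted p = 0.0323, edgeR), -0.63 without TET-MYCN 1 (adjusted p = 0.403) and -0.60 without TET-MYCN 4 (adjusted p = 0.460). Mycn, which the pathway induces in progenitors, showed 0.07 ± 0.28 on the log2 scale (adjusted p = 0.934, edgeR). Of the targets named here, Hhip and Gli1 had groups that did not overlap, and Ptch1, Ccnd1, Ccnd2, Mycn and Igf2 had groups that did.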

How the data were processed

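Libraries were made from poly(A)-selected RNA, per the labels' protocols. For each library the authors deposited raw counts of reads per gene symbol. The submitters' processing notes list HTSeq 0.5.4p3, TopHat2 2.0.8b, CASAVA 1.8.2 and build mm9. Strand handling and gene annotation: not given in the sources used here. Reads outside genes or counted in several (28.3% to 31.7% per table) were kept out. Counts were scaled by TMM, filtered with filterByExpr, and tested with edgeR 4.0.16 (quasi-likelihood, robust, group as the only term; R 4.3.3) over all 15106 genes at an adjusted p of 0.05. CPM used TMM-scaled library sizes, and log2 CPM a prior count of 2. A ± after a log2 fold change is its SE. The members, lists and rule for named genes were chosen with earlier results of these data known. The rule named the 9 members, the 3 genes with the smallest p in each of 5 lists, and further single genes including Dhh, Ihh and Mycn; some genes it named are not reported here. Transcript lengths came from GENCODE M21 by symbol (90.4% of genes tested matched). Alternatives were DESeq2 1.42.0, limma-voom (limma 3.58.1), other scalings and filters, a replicate block, and libraries left out. Tested on simulated counts for this comparison (15004 genes), edgeR found 76 of 100 seeded 2-fold changes, 99 of 100 seeded 4-fold changes and 6 unseeded genes. Those counts were drawn independently with a spread set by the fitted trend alone. They held no shared library differences such as the length pattern of TET-MYCN 3. The shares found can therefore overstate what the test finds in these data. A count of 3 is 0.130 to 0.202 CPM. Replicates all differed beyond sampling noise (chi-square per degree of freedom at least 17.1).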

Additional observations from a re-analysis of the deposited data

Results flagged for a closer look

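Among 52 groups of 4 libraries screened over the 9 genes and the other named genes of the pathway, 2 held a library that stood apart from the other 3 by Dixon's criterion, where chance gives about 1 in 20, or 2.6. In TET-MYCN 3 Scube2 was at 1.18 CPM, while the other TET-MYCN libraries held 3.02 to 3.21 CPM. In TET-MYCN 4 Arl13b was at 30.1 CPM, while the others held 40.9 to 42.3 CPM.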

How the results depend on the processing

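Over 17 alternatives the sign of the log2 fold change held for 8 of the 9 genes. Sufu, near 0, turned negative with limma-voom (-0.063) and the replicate block (-0.055), and lay between -0.16 and 0.22 with 1 library left out. Mycn lay between -0.17 and 0.31 with 1 library left out. The count of all genes called was 9 with all libraries, 17 without a filter on low counts, 530 with DESeq2, 0 with limma-voom (2262 before adjustment), 3 with the replicate block, 0 (1306 unadjusted) with Rb-null 2 and 3, rich in crystallin, removed, and 0 to 230 with 1 library left out: 230 without TET-MYCN 3, 132 without TET-MYCN 2, 1 without Rb-null 1 and 0 without any of the other 5 (1391 to 2739 unadjusted). Of the 9 genes 1 was called with DESeq2 and 0 to 1 with 1 library left out, Hhip in both. The replicate block called 0 of the 9. Same-numbered libraries did not deviate together (correlations -0.29 to -0.04), and no library correlated best with its own number. These correlations gave no sign of a pairing by number. The relation of Gli1 with Hhip had r = 0.83 without TET-MYCN 2 and Rb-null 2, past the threshold no longer. Gli1, Hhip and Shh rest on 13 to 97 reads per library, which limits their precision.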
